A study of Mus musculus with 20 samples.

Results

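The genes followed across the series were the carbonyl reductases Cbr1, Cbr3 and Cbr4 and the gene Dop1b (Dopey2 in the array's own annotation), which lies beside Cbr1 and Cbr3 on mouse chromosome 16. They were found by gene name among the gene probes and made up 4 of 27670 genes or names on the array, with 5 of its 41174 gene probes. The values that chose them were the log2 ratios described here: Cbr1 was taken up for its difference between the strains, Cbr3 and Dop1b as its neighbours and Cbr4, on chromosome 8, as a relative elsewhere in the genome. Strain differences of these genes, and differences of the F1 embryos from either strain, are therefore given as descriptions with no test.

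The study compared gonads of XY mouse embryos at embryonic day 11.5, staged at 17 to 21 tail somites, in 4 groups of 5 arrays: the inbred strains C57BL/6J and 129S1/SvImJ and the reciprocal crosses (B6x129S1)F1 and (129S1xB6)F1. The sources used here do not say which parent of each cross was the mother. Each array carried 1 pair of gonads, dissected away from the mesonephros, labelled with Cy5 (red). The same reference pool, labelled with Cy3 (green), was on every array. It combined whole embryos (4 XY, 2 XX) with gonads (4 XY pairs, 3 XX pairs) of the same age from Sox9-ECFP(C57BL/6J) x CD-1. No array had the dyes exchanged. A value is the log2 ratio of gonad to pool, so 0 means equal signals and 1 a doubling in the gonad, and a difference between groups does not depend on the pool's composition. Nothing in the labels says that embryos of a group came from separate litters, so p-values measure the spread between these arrays.

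Carbonyl reductases use NADPH to reduce aldehydes, ketones and quinones to alcohols. Cbr1 is a cytosolic enzyme with a broad range of substrates that include prostaglandin E2, quinones, products of lipid peroxidation and anthracycline drugs, and Cbr3 is its close relative with a narrower range. Cbr4 is a mitochondrial reductase that works together with Hsd17b8 in mitochondrial fatty acid synthesis. Dop1b is not a reductase; it belongs to a conserved family linked to vesicle traffic between Golgi and endosomes. In several cell types Cbr1 and Cbr3 are targets of NRF2, the transcription factor of the oxidative stress response.

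Each carbonyl reductase was read by 1 probe of 60 bases and Dop1b by 2, so the sequence under each probe is what the values rest on. The middle 30 bases of each probe (positions 16 to 45) follow as the array files give them, with the central 10 in capitals, the place where a mismatch weakens hybridisation most.
Cbr1: cttgctgaagGCCAAGGAAAgccataatgt
Cbr3: tgaacaattcGCTGTGTCCAcactctcagc
Cbr4: tctaattagaGATGATGTTActgtgatggc
Dop1b, brighter probe: tgttcaggtaTTTTCTGTTCagcggccaaa
Dop1b, dimmer probe: cggaggagcaGGAGCTACTGaacgattaca
The Cbr1 and Cbr3 probes shared at most 18 identical bases over 51 aligned bases without gaps, fewer than the 22 of 60 between Cbr3 and Cbr4. The Cbr1 probe shared a run of 15 bases with 2 other probes of the array, and the other 4 probes shared no such run with any. The sequence of 129S1/SvImJ under these probes was not analysed here.

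Cbr1 was the member that differed most between the strains: its ratio to the pool was 4.01-fold lower in C57BL/6J than in 129S1/SvImJ. In C57BL/6J the 5 log2 ratios were -0.90, -1.02, -1.04, -0.93 and -1.04 (mean -0.99 ± 0.07, SD). In 129S1/SvImJ they were 1.39, 0.93, 0.92, 1.11 and 0.75 (mean 1.02 ± 0.24). All 5 C57BL/6J gonads thus lay below the pool and all 5 of 129S1/SvImJ above it, with a gap of 1.64 between the nearest arrays. The difference of -2.003 ± 0.10 (SE) was the 64th lowest of 35040 probes tested, and the arrays of the strains did not overlap with C57BL/6J lower for 2.26% of those probes. Since Cbr1 was chosen on this difference, its place is a description.

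**Figure D1:**
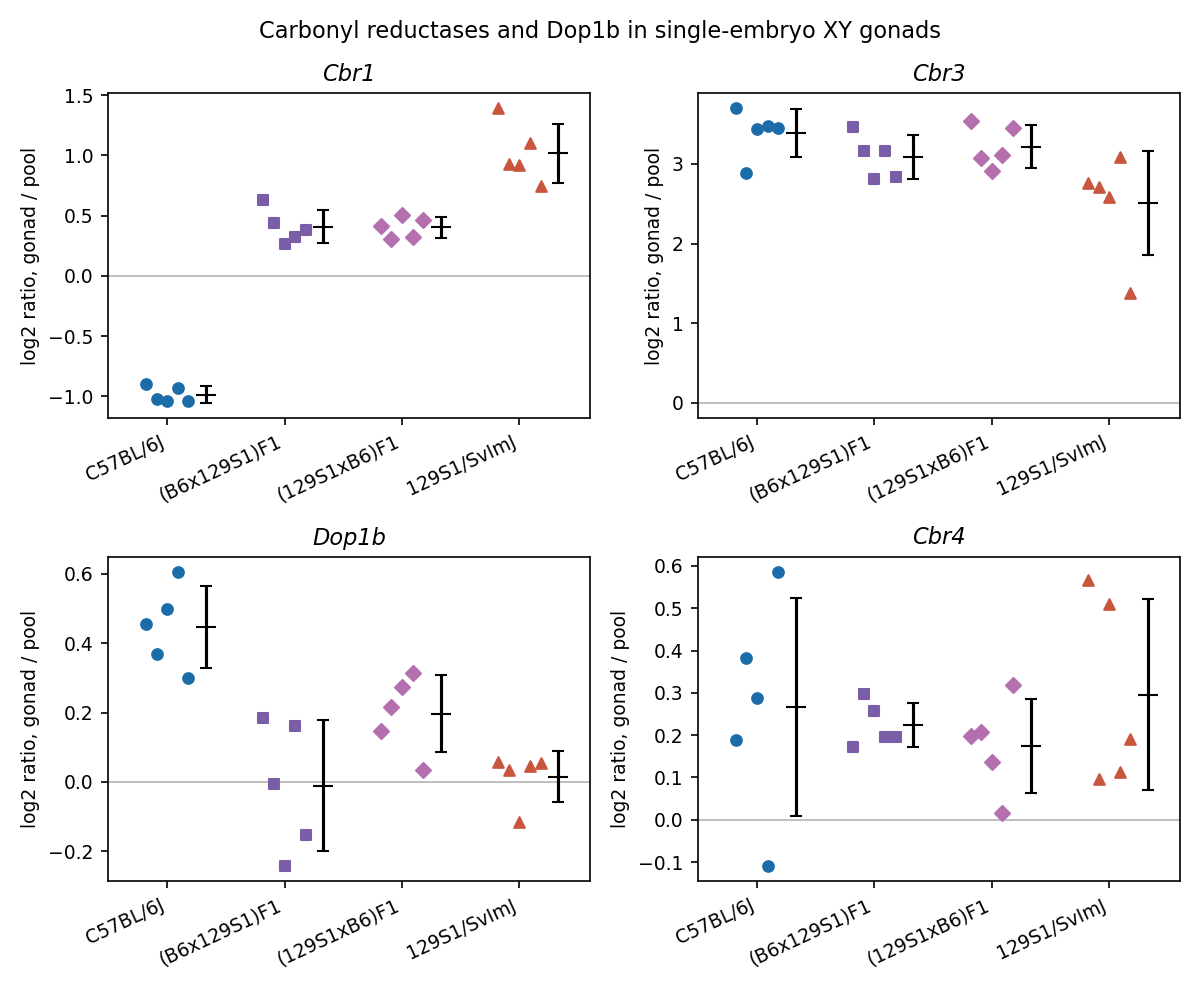
Log2 ratio of gonad to reference pool (vertical axis, unitless) on each of the 20 arrays for Cbr1, Cbr3, Dop1b (brighter probe) and Cbr4; points are arrays, bars are the mean ± SD of 5. Cbr1 separates C57BL/6J (highest -0.90) from 129S1/SvImJ (lowest 0.75) with both F1 groups between, while the Cbr4 groups overlap.

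The separation lay mostly in the gonad channel. The median Cy5 signal of Cbr1 was 2933 units in C57BL/6J and 14610 in 129S1/SvImJ, and no spot of a member was saturated or flagged on any array. The Cy3 signal of the shared pool was not level either: it ran from 5707 to 6226 on the C57BL/6J arrays and from 7296 to 7689 on the 129S1/SvImJ arrays. Cy3 on every 129S1/SvImJ array above every C57BL/6J array was seen for 0.468% of the probes tested. For Cbr1 the Cy5 difference was -2.32 and the Cy3 difference -0.32 on the log2 scale, where the median Cy3 difference over all probes was -0.10. The strain difference was thus larger in Cy5 alone than in the ratio.

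Both F1 groups carried Cbr1 between the strains and alike. In (B6x129S1)F1 the log2 ratios were 0.63, 0.44, 0.27, 0.32 and 0.38 (mean 0.41 ± 0.14, SD). In (129S1xB6)F1 they were 0.41, 0.31, 0.51, 0.33 and 0.46 (mean 0.40 ± 0.09). Every F1 array lay above every C57BL/6J array and below every 129S1/SvImJ array, an order found for 0.311% of the probes tested. Only probes whose strains do not overlap (5.19%) can have this order. Since Cbr1 was chosen for its strain difference, that share is a description. The highest F1 array and the lowest of 129S1/SvImJ were only 0.12 apart. The F1 mean was 1.39 above C57BL/6J and 0.61 below 129S1/SvImJ, so the order of levels was C57BL/6J, then both F1 groups, then 129S1/SvImJ, with the F1 groups not separable.

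The reciprocal crosses differed in Cbr1 by 0.01 ± 0.10 (SE), with a 95% interval from -0.21 to 0.22 (limma, adjusted p = 1). This comparison did not use the strain arrays' difference by which Cbr1 was chosen. None of the 4 members passed in it, beside 0.00571% of all probes. The interval covers changes of up to about 0.2 log2 units in either direction.

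Set against the mean of the parent strains, the F1 value of Cbr1 depended on the scale. On the log2 scale the F1 mean of 0.41 was 0.39 ± 0.07 (SE) above the mid-parent value of 0.02 (limma, adjusted p = 0.026; 95% interval 0.24 to 0.54), and all 10 F1 arrays were above that value. Cbr1 was 1 of 81 probes called higher in the F1 groups, 0.231% of those tested. As plain ratios, the group means were 0.506 ± 0.024 (SD) for C57BL/6J and 2.05 ± 0.36 for 129S1/SvImJ, with 1.33 ± 0.13 for (B6x129S1)F1 and 1.32 ± 0.08 for (129S1xB6)F1. The F1 mean of 1.33 was then 1.04 times the mid-parent ratio of 1.28, and the difference of 0.05 ± 0.09 (SE) did not pass (limma on ratios, adjusted p = 0.868). The arithmetic mean of strains that differ this much lies above their geometric mean: the log2 of the mid-parent ratio was 0.35, where the mean of the log2 values was 0.02. This gap between the scales grows with the strain difference, for which Cbr1 was chosen. The log2 call and the 0.231% beside it are therefore a description. The log2 call (limma) was also lost with normexp and loess (0.35, adjusted p = 0.0602), with the deposited ratios (0.36, adjusted p = 0.0845), with the title letter as a random block (0.39, adjusted p = 0.1) and without any 1 of the arrays H2, H3, L4 and M6 (limma, adjusted p = 0.0565 to 0.0612). Within slides 2, 3 and 4, each with 1 array per group, the log2 excess was 0.49, 0.43 and 0.61.

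**Figure D2:**
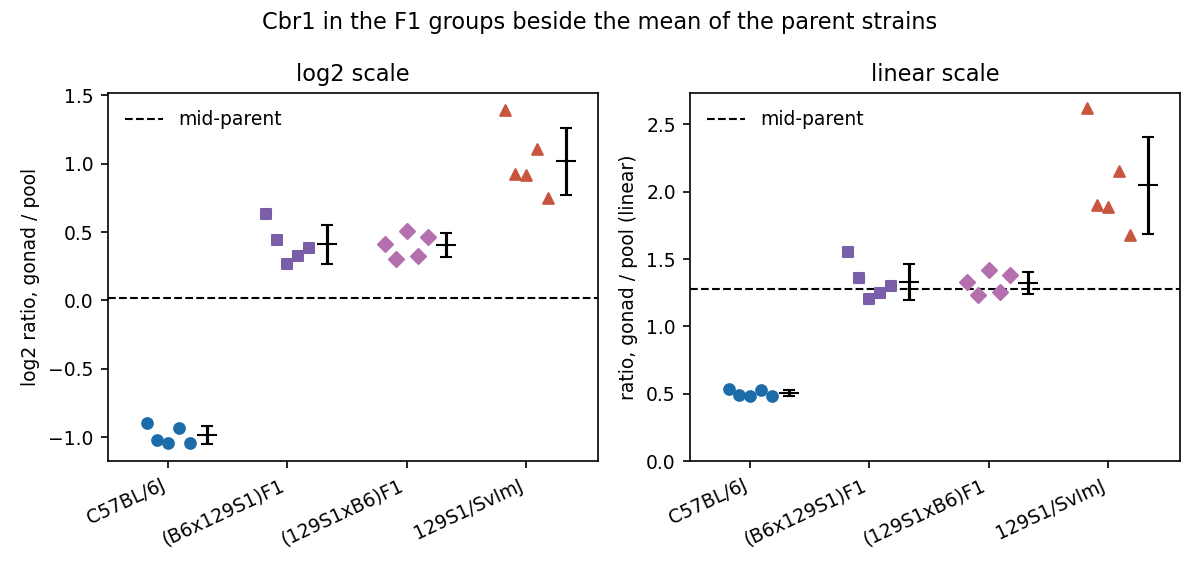
Cbr1 on each array as log2 ratio (left) and as plain ratio (right, axis from 0) of gonad to pool, with group mean ± SD of 5 and the mid-parent value as a dashed line. The F1 arrays all lie above the mid-parent on the log2 scale (0.02) and straddle it on the linear scale (1.28).

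Cbr3 ran the other way between the strains and was the member richest in the gonad relative to the pool. Its mean log2 ratio over the 20 arrays was 3.05, the 133rd highest of 35040 probes tested; this is a ratio to the pool, not an amount of RNA. In C57BL/6J the log2 ratios were 3.70, 2.88, 3.43, 3.47 and 3.45 (mean 3.39 ± 0.30, SD). In 129S1/SvImJ they were 2.76, 2.72, 2.59, 3.08 and 1.38 (mean 2.50 ± 0.65). The last of these, array G3, stood 1.20 below the next lowest, and the strains overlapped, as array D4 of 129S1/SvImJ (3.08) lay above H2 of C57BL/6J (2.88). With normexp and loess G3 stood less apart: it had 1.14, and array A4 of the same strain had 1.53 in place of 2.72. Over all probes A4 was the array on which that processing followed the main ratios least (r = 0.82). The strain difference was 0.88 ± 0.24 (SE), or 1.84-fold higher in C57BL/6J, and 0.60 without G3.

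Slide by slide, the Cbr3 strain difference was 0.65, 0.17, 0.87 and 2.09 on slides 1 to 4, the last holding G3, against -2.22, -1.95, -1.96 and -1.68 for Cbr1. G3 was also the lowest 129S1/SvImJ array for Cbr1 (0.75). The mean of the gonad somatic markers on G3 (log2 ratio 1.66) ranked 3rd lowest of 20 and that of its germ cell markers (2.16) 4th lowest. Its mesonephros markers ranked 5th lowest, and its erythroid and macrophage markers each 7th. Its steroidogenic and endothelial markers lay toward the other end, at rank 15 and 16 from the lowest. The arrays with lower somatic markers, A6 (1.59) and A3 (1.63) of the same strain, had Cbr3 values of 2.59 and 2.76. Those with lower germ cell markers, H4, H2 and H3, had Cbr3 values of 2.88 to 3.47. Whether cell types have a part in the Cbr3 value of G3 was not tested.

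The F1 groups lay between the strain means for Cbr3, with overlap throughout. In (B6x129S1)F1 the log2 ratios were 3.47, 3.16, 2.81, 3.16 and 2.83 (mean 3.09 ± 0.27, SD). In (129S1xB6)F1 they were 3.54, 3.08, 2.91, 3.11 and 3.45 (mean 3.22 ± 0.27). In order of means the groups ran from 129S1/SvImJ through (B6x129S1)F1 and (129S1xB6)F1 to C57BL/6J, and no neighbours in that order were apart beyond the spread of their arrays. The crosses differed by -0.13 ± 0.24 (SE; 95% interval -0.64 to 0.37; limma, adjusted p = 1) and the F1 mean was 0.20 ± 0.17 above mid-parent (95% interval -0.15 to 0.56; limma, adjusted p = 0.742), or 0.06 without G3, so neither comparison passed and either interval still holds changes of over 0.3.

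**Figure D3:**
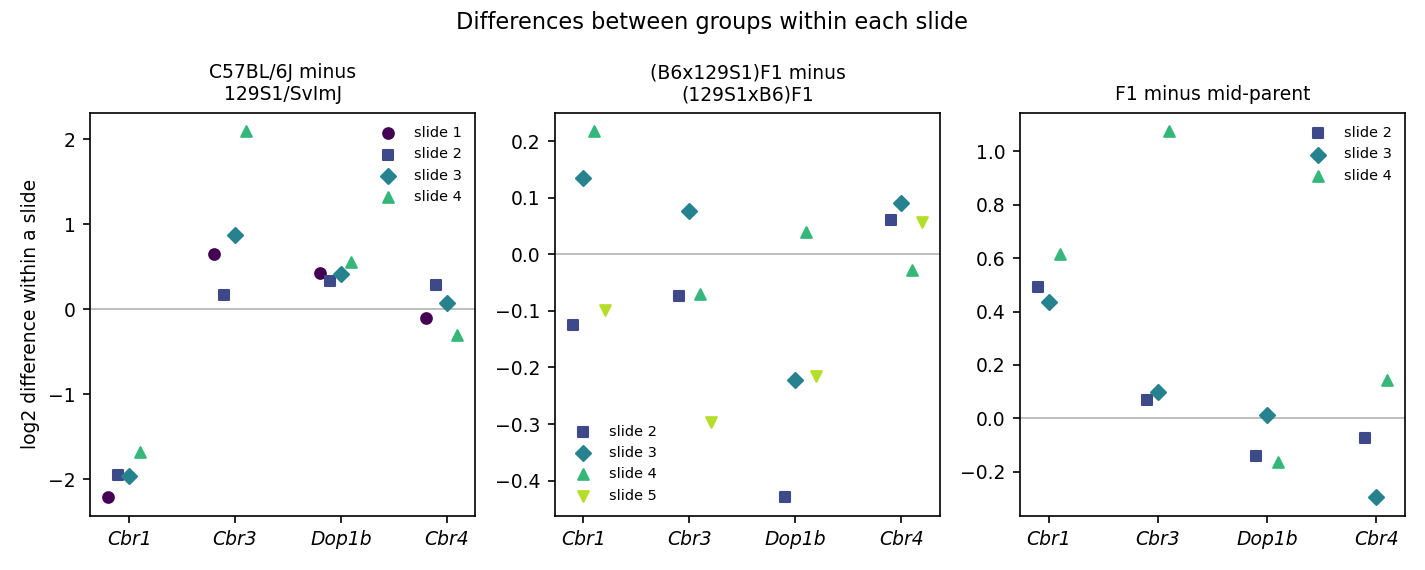
Log2 difference between groups within each slide (vertical axis; 1 symbol per slide) for the 4 genes in 3 comparisons; slides 2 to 4 hold 1 array of each group, slide 1 holds 2 of each strain and slide 5 holds 2 of each F1 group. Cbr1 is negative on all 4 slides with both strains (-2.22 to -1.68), and Cbr3 is positive on the same slides with its highest value (2.09) on slide 4.

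Cbr4, the mitochondrial relative, was nearly level. In C57BL/6J its log2 ratios were 0.19, 0.38, 0.29, -0.11 and 0.59 (mean 0.27 ± 0.26, SD). In 129S1/SvImJ they were 0.57, 0.10, 0.51, 0.11 and 0.19 (mean 0.30 ± 0.23). In (B6x129S1)F1 they were 0.17, 0.30, 0.26, 0.19 and 0.20 (mean 0.22 ± 0.05), and in (129S1xB6)F1 they were 0.20, 0.21, 0.14, 0.02 and 0.32 (mean 0.18 ± 0.11). All groups overlapped, and the strain means differed by -0.03. The crosses differed by 0.05 ± 0.12 (SE; 95% interval -0.20 to 0.30; limma, adjusted p = 1), and the F1 mean was below mid-parent by -0.08 ± 0.08 (95% interval -0.26 to 0.09; limma, adjusted p = 0.791).

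Dop1b had a smaller strain difference, in the direction of Cbr3 and against that of Cbr1. By its brighter probe the C57BL/6J log2 ratios were 0.46, 0.37, 0.50, 0.61 and 0.30 (mean 0.45 ± 0.12, SD). In 129S1/SvImJ they were 0.06, 0.03, -0.12, 0.04 and 0.05 (mean 0.01 ± 0.07). The strains did not overlap, with C57BL/6J 1.35-fold higher (difference 0.43 ± 0.09, SE); 2.93% of the probes tested had C57BL/6J above 129S1/SvImJ without overlap.

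In (B6x129S1)F1 the Dop1b log2 ratios were 0.19, -0.01, -0.24, 0.16 and -0.15 (mean -0.01 ± 0.19), and in (129S1xB6)F1 they were 0.15, 0.22, 0.27, 0.31 and 0.03 (mean 0.20 ± 0.11). Of the 10 F1 arrays only M3, at 0.31, reached the C57BL/6J range, and the F1 mean over both crosses was 0.35 below C57BL/6J. The mean of (B6x129S1)F1 was close to that of 129S1/SvImJ, while 4 of the 5 (129S1xB6)F1 arrays lay above every 129S1/SvImJ array. The crosses differed by -0.21 ± 0.09 (SE; 95% interval -0.41 to -0.01), with p = 0.039 before adjustment and 1 after it (limma), and the exact permutation test of 5 against 5 arrays gave p = 0.0714. The F1 mean was below mid-parent by -0.14 ± 0.07 (95% interval -0.28 to 0.0016; limma, adjusted p = 0.578).

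The dimmer Dop1b probe, annotated to another transcript record, was close to the limit of detection. Its Cy5 signal of 36.8 to 92.9 units was well above background on only 3 of 5 arrays in each group, so it was not tested. Its log2 ratios ran from -0.67 to 0.42 for C57BL/6J and from -0.23 to 0.37 for 129S1/SvImJ. Those of (B6x129S1)F1 ran from -0.76 to 0.35 and those of (129S1xB6)F1 from -0.50 to 0.05. All groups overlapped, and the means of the strains differed by -0.09 where the brighter probe had 0.43.

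The opposite strain differences of Cbr1 and Cbr3 sit side by side, so their surroundings were examined gene by gene. In order along the chromosome in the RefSeq gene table, Setd4, a histone methyltransferase, comes just before Cbr1, and Cbr3 and Dop1b follow it. Of 23 other genes (10 on each side and 3 between), 8 had a probe and 7 were tested, and none was called in any of the 3 comparisons (limma), beside 5.4% of genes called between strains. Setd4 had a strain difference of -0.32 ± 0.13 (SE; limma, adjusted p = 0.206), in the direction of Cbr1. Beyond Dop1b, Morc3, a chromatin protein, had -0.03 ± 0.14, Chaf1b, a histone chaperone subunit, 0.09 ± 0.12, and Cldn14, a tight junction claudin, 0.07 ± 0.08. Hlcs, the enzyme that attaches biotin to carboxylases, had 0.27 ± 0.21. The median over the 7 was 0.07, beside 0.01 over all genes. Cbr1, Cbr3 and Dop1b stood beyond the range of these 7 (-0.32 to 0.27). Cbr1 was chosen for its strain difference, so this is a description. Setd4 was the only tested neighbour before Cbr1, and the 3 genes between had no probe, so that side was hardly measured.

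**Figure D4:**
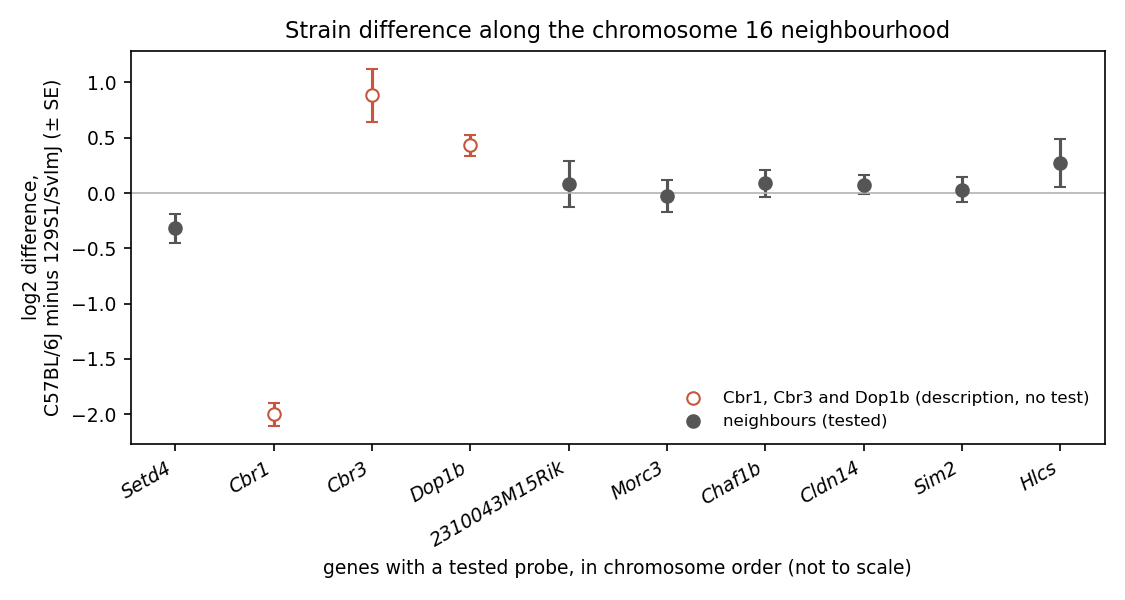
Log2 difference of C57BL/6J minus 129S1/SvImJ (± SE of the fit over 20 arrays) for genes with a tested probe, in chromosome order but not to scale; open symbols are Cbr1, Cbr3 and Dop1b, given as a description, and filled symbols are tested neighbours. Cbr1 at -2.003 and Cbr3 at 0.88 stand beyond the neighbours, which run from -0.32 to 0.27.

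The stretches upstream of Cbr1 and Cbr3 are shown because the neighbours ran in opposite directions. Both are the 250 bases before the RefSeq start in GRCm38.p6, plus strand, with CpG pairs in capitals.
Cbr1, chr16:93607587-93607836: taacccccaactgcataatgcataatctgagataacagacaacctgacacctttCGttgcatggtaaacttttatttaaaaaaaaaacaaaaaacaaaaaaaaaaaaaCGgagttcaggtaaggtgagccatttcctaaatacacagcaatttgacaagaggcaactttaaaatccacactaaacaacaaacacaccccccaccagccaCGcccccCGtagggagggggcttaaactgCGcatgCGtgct
Cbr3, chr16:93682969-93683218: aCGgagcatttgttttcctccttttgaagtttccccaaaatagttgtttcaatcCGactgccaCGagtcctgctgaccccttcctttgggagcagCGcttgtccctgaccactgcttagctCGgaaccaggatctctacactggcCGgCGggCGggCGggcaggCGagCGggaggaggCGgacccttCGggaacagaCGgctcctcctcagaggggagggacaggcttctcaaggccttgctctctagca
The Cbr1 stretch held 6 CpG pairs and the Cbr3 stretch 14, beside a median of 6 over 32851 promoters, and their G and C content was 41.6% and 59.6%. The core of the antioxidant response element to which NRF2 binds, TGACNNNGC on either strand, was not in either stretch, and 10.161% of all promoters held it. The first of 2 Dop1b entries held it 2 times, in adjacent matches on opposite strands that do not overlap. These are counts of letters in the reference, which is C57BL/6J; a match is not a binding site.

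Other genes of the same chemistry were taken from a list. Of 30 further carbonyl, aldo-keto and quinone reductases tested, 1 was higher in C57BL/6J and none lower, with a median difference of 0.03 (all genes: 0.01). That gene was Akr1c18, a reductase of progesterone and prostaglandins, at 1.79 ± 0.48 (SE), or 3.46-fold (limma, adjusted p = 0.0301), where 5.4% of all genes were called. Its call was lost in 8 of 32 other settings. Cbr2, a reductase best known from lung, had 0.04 ± 0.16 (limma, adjusted p = 0.962). Nqo1, which reduces quinones in a single step and is a standard NRF2 target, had 0.64 ± 0.23 (limma, adjusted p = 0.147). Dcxr, the reductase of diacetyl and L-xylulose, had 0.18 ± 0.21, Akr1a1, an aldehyde reductase, -0.09 ± 0.12, and Akr1b3, an aldose reductase, -0.17 ± 0.15; none of these passed.

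Hsd17b8, the partner of Cbr4, had a strain difference of 0.34 ± 0.16 (limma, adjusted p = 0.337), and none of the 8 genes of mitochondrial fatty acid synthesis passed (median -0.03). Of 17 aldehyde dehydrogenases, Aldh1b1, a mitochondrial one, was called higher in C57BL/6J by 0.69 ± 0.20 (limma, adjusted p = 0.0495), and that call was lost in 26 of 32 other settings. In the prostaglandin pathway 1 of 18 genes was called, again Akr1c18, and both counts of 1 stand beside the 5.4% of all genes called; Ptges, a prostaglandin E synthase, had 0.20 ± 0.09 (limma, adjusted p = 0.327) and Hpgd, which inactivates prostaglandins, 0.08 ± 0.19 (limma, adjusted p = 0.928). Ptgs2, the inducible cyclooxygenase, was too dim to be tested.

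Of 22 NRF2 target genes, 1 was higher and 1 lower in C57BL/6J, with a median of 0.04, beside 5.4% of all genes called in either direction. Me1, the cytosolic malic enzyme that makes NADPH, was 2.23-fold higher (1.15 ± 0.23, limma, adjusted p = 0.00379). Gclc, the catalytic subunit of the first enzyme of glutathione synthesis, was 1.36-fold lower (-0.44 ± 0.10, limma, adjusted p = 0.0106). So the called genes of this list moved in both directions. None of the genes of these 5 lists was called between the crosses or against mid-parent (limma), where 0.00839% and 0.256% of all genes were.

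Cell type markers were read on the same arrays. The mean over the 8 gonad somatic markers was above the pool in every group (log2 ratio 1.79 in 129S1/SvImJ to 2.11 in C57BL/6J). The mean over the 6 mesonephros markers was below it (-0.28 to -0.09). Of the somatic markers, Sox9 was below the pool in 129S1/SvImJ (-0.26). Members of the mesonephros list differed: Pax8 was above the pool in all 4 groups (0.49 to 1.19) and Emx1 in every group but 129S1/SvImJ. Of 7 marker lists, 1 did not overlap between the strains. Among single probes tested 5.19% did not overlap, in either direction, but a mean over a list is not a single probe, so that share is no background for lists. The list without overlap was that of 5 steroidogenic markers. Its array means ran from 1.89 to 2.23 in C57BL/6J and from 2.25 to 2.60 in 129S1/SvImJ, the direction of Cbr1. Of these 5, Hsd3b1 (-1.25 ± 0.20, limma, adjusted p = 0.000271) and Star (-0.99 ± 0.26, limma, adjusted p = 0.0299) were called lower in C57BL/6J. Calls between the strains in this paragraph stand beside 5.4% of all genes called in either direction. The other steroidogenic markers were not called: Cyp11a1 had a strain difference of -0.08, Cyp17a1 -0.06 and Nr0b1 0.50, and the median of the list was -0.08. The 6 endothelial markers were all below 0 in the same difference (median -0.23) with none called, and their array means of 0.31 to 0.59 in C57BL/6J and 0.58 to 0.84 in 129S1/SvImJ overlapped. Of the 6 germ cell markers, 5 were below 0 (median -0.17) and none was called. The median strain difference over all genes was 0.01. Emx2, a gonad somatic marker, was called higher in C57BL/6J (1.04 ± 0.24, limma, adjusted p = 0.0106), as was Emx1 (1.07 ± 0.24, limma, adjusted p = 0.00836), listed with the mesonephros, while Lhx1 was called lower (-0.61 ± 0.14, limma, adjusted p = 0.00949). Germ cell markers were above mid-parent in the F1 groups for 6 of 6 genes (median 0.43, beside 0.01 over all genes), with Ddx4 called (1.20 ± 0.24, limma, adjusted p = 0.0338). Against mid-parent 0.256% of all genes were called. The part of these cells in the values of Cbr1 and Cbr3 was not tested, and in whole gonads fewer cells of a type and less RNA per cell cannot be told apart.

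Embryos of the same group also varied, and the members' deviations from their group means were compared pair by pair over the 20 arrays (6 pairs). Dop1b and Cbr4 deviated in opposite directions: Pearson r was -0.55 (permutation p = 0.00099, adjusted p = 0.00594) and Spearman rho -0.59 (permutation p = 0.00248, adjusted p = 0.0149). The signs agreed on only 5 of 20 arrays, and r was -0.58 without the 2 arrays farthest from the median of Dop1b. Leaving out each array in turn, r ran from -0.66 to -0.46 and passed each time (permutation, adjusted p = 0.00084 to 0.0272), while rho missed the threshold without any 1 of C2, A6, H2, M6 and E1 (permutation, adjusted p = 0.0588 to 0.171). With slide means removed as well, r was -0.49 (permutation, adjusted p = 0.046), and with normexp and loess -0.53 (permutation, adjusted p = 0.0248). The deviations were small, with a spread within groups (SD) of 0.13 for Dop1b and 0.18 for Cbr4. The permutations did not keep arrays of a slide or title letter together. How many pairs of other probes had an r this far from 0 was not counted, so the value does not set this pair apart from other genes.

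Cbr1 and Cbr3, opposite between the strains, tended to deviate together within groups without passing. Pearson r was 0.61 (permutation p = 0.0624, adjusted p = 0.187) and Spearman rho 0.55 (permutation p = 0.0234, adjusted p = 0.0701), with 14 of 20 arrays on the same side, and r was 0.65 without the 2 arrays farthest from the median of Cbr1. Leaving out 1 array at a time moved r between 0.40 (without G3, permutation, adjusted p = 0.247) and 0.68 (without A3, permutation, adjusted p = 0.0189). Only without A3 did r pass. In the same settings rho passed without any 1 of A3, F2, H3, K2, L2, L4 and M3 (permutation, adjusted p = 0.0154 to 0.0499). The other 4 pairs had r from 0.01 to 0.29, with adjusted p of 0.412 to 0.984 (permutation).

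**Figure D5:**
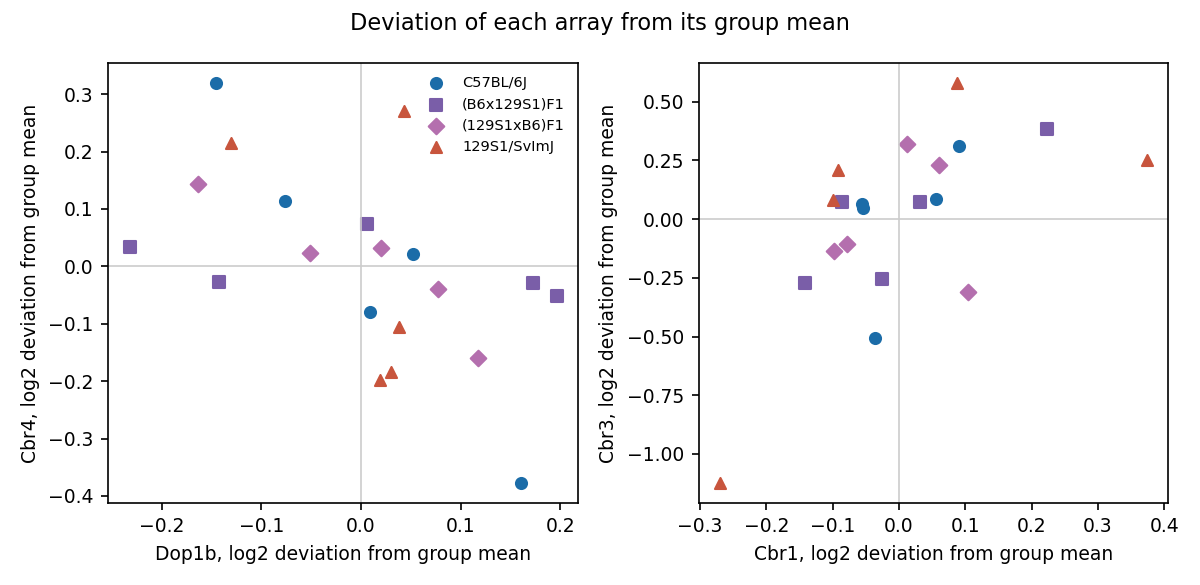
Deviation of each array from its group mean in log2 units for Dop1b against Cbr4 (left) and Cbr1 against Cbr3 (right), 1 point per array, symbols by group. The left panel slopes down (r = -0.55) and the right panel slopes up (r = 0.61), with array G3 at its lower left.

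The genes whose ratios ran most like Cbr1 over all 20 arrays were Whrn (r = 0.98), a scaffold protein of hair cells, Tescl (0.98), Wdfy1 (0.98), Dera (0.98), an aldolase of deoxyribose phosphate, and Ccnb1ip1 (0.98), a factor of meiotic crossing-over. All 5 had their lowest mean in C57BL/6J, their highest in 129S1/SvImJ and the F1 groups between: Whrn had mean log2 ratios of -1.82 (C57BL/6J), -0.12 ((B6x129S1)F1), -0.09 ((129S1xB6)F1) and 0.62 (129S1/SvImJ). That order follows from picking genes by their likeness to Cbr1, whose strains lie apart with the F1 groups between. With group means removed, the top genes were others: Tmem219 (r = 0.93), Dph7 (0.93), Aurkaip1 (0.92), Akip1 (0.91) and Eola1 (0.91), and the group means of each lay close together, farthest apart for Aurkaip1 (0.84 to 0.94).

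Among the genes closest to Cbr3 over all arrays were Mfsd13a (r = 0.90), Rnase1 (0.89), Mrps12 (0.88) and Echdc2 (0.88). These 4 had their lowest mean in 129S1/SvImJ, as had Cbr3, by likeness to which they were picked. With group means removed the closest were Slc35b2 (0.91), Lmf1 (0.90), Mfsd2a (0.90), Etv2 (0.89), a transcription factor of the endothelial lineage, and Cngb1 (0.88). All these correlations are among the highest over 34951 probes with a value on every array, computed on arrays that share the reference pool and, in part, slides, and are given as descriptions.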

How the data were processed

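Agilent 2-colour arrays of 20 XY gonad samples were used, 5 in each of 4 groups. Per the file headers, spot intensities were extracted with Agilent Feature Extraction 9.1.3.1, and the processed intensities are background-subtracted and dye-normalized; the gonad is in Cy5. The authors also deposited a table of log2 ratios, whose further processing is not given in the sources used here; its columns correlated with the ratios computed here at r = 0.986 to 0.999, in the same direction, and had medians of 0.0033 to 0.0439, so scale and direction match and centring is unknown.

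The measure here was log2 of processed Cy5 over processed Cy3 per probe, spots averaged and outlier-flagged spots left out, with no further normalization. Of 41174 gene probes, 35040 were tested: in 1 or more groups the Cy5 spot had to stand well above background on 4 of the 5 arrays, and each group needed 3 values. On each array 77.9% to 88.0% of gene probes were well above background; 5 arrays a group limit the precision. A single limma model (version 3.58.1, R 4.3.3) over all 20 arrays gave every comparison, with Benjamini-Hochberg adjustment over the probes tested and calls at adjusted p under 0.05. It was tested on simulated data. Correlations used residuals from group means and 100000 permutations within groups. Slides and title letters (possible litters) were tried as blocks; slide 1 held strains only and slide 5 F1 groups only.

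A gene other than those studied is given by its brightest probe. Gene names came from accessions (22951 probes), symbols (6659), synonyms (3109) or the array's own name (8455). Named genes were all probes of the 4 genes, listed genes that were called or act beside the carbonyl reductases, 10 neighbours on each side, and the 5 most similar genes by each measure, of which 1 is not reported here. The genes and lists were chosen with earlier results of these data known. Upstream sequences are from RefSeq (GRCm38.p6); the build behind the array annotation is not given in the sources used here.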

Additional observations from a re-analysis of the deposited data

Results flagged for a closer look

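The Dop1b log2 ratio of array A6 in 129S1/SvImJ, by the brighter probe, was -0.1157, while the other 4 arrays of that group lay between 0.03 and 0.06. Its gap to the nearest array was 0.86 of the group's range, above the limit of 0.71 for 5 samples. Of 20 sets of 5 arrays examined this was 1, and chance flags about 1 in 20. The Cbr3 value of array G3 in 129S1/SvImJ (1.38) fell just short of that limit, with a gap of 0.7075 of the range.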

How the results depend on the processing

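Replicate identifiers are not shared between groups, so arrays were matched only by slide. The direction of the Cbr1, Cbr3 and Dop1b strain differences held under every setting tried. With normexp and loess, the deposited table or each array centred on its median, the Cbr1 cross difference turned to -0.0271, -0.0227 and -0.0082, all near 0; the Cbr1 excess over mid-parent missed the threshold with normexp and loess (0.3505), the deposited table (0.3624) and the title letter as a random block (0.3945), and the cause was not tested. Settings chosen after seeing the data were slides 2 to 4 alone with slide as block (Cbr1 mid-parent 0.5142, not called; F1 minus 129S1/SvImJ -0.4164; fewer arrays enter) and linear ratios (Cbr1 mid-parent 0.0519). Counts of calls moved as follows. Strain calls (1915) fell to 1224 with the title letter and 595 on slides 2 to 4. Mid-parent calls (84) fell to 31 with slide as block, 38 with the title letter, 1 on slides 2 to 4 and 9 on linear ratios. Cross calls by limma (2, with 1170 probes at unadjusted p under 0.05) became 0 with normexp and loess (813 such probes) and 0 on slides 2 to 4 (1380), and 1 on linear ratios and with probes well above background on all 20 arrays. Called genes in the 5 lists (4) became 2 with the title letter and 1 on slides 2 to 4.

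Within single slides, Cbr1 had strain differences of -2.2157 (slide 1) and -1.6775 (slide 4), a cross difference of 0.2173 and a mid-parent excess of 0.6146 (both slide 4). Cbr3 had strain differences of 0.1671 (slide 2) and 2.0916 (slide 4) and a mid-parent excess of 1.0756 (slide 4). Dop1b had cross differences of -0.4296 (slide 2) and 0.039 (slide 4) and a mid-parent difference of 0.0132 (slide 3). Cbr4 had strain differences of 0.2841 (slide 2) and -0.3011 (slide 4) and mid-parent differences of -0.2962 (slide 3) and 0.1445 (slide 4). These rest on 1 or 2 arrays a group. The near-0 correlations turned sign for Cbr3 with Dop1b (-0.0582, normexp and loess) and Cbr3 with Cbr4 (-0.1115, slide means removed). On slides 2 to 4 the strain differences of Hpgd, Akr1a1 and Akr1b3 were -0.0243, 0.003 and 0.0209.

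Leaving out each array in turn gave 2 to 5 cross calls, 51 to 117 mid-parent calls, 2 to 5 called list genes, and Cbr1 values of -0.0496 to 0.0414 (cross) and 0.3566 to 0.4371 (mid-parent, adjusted p 0.00237 to 0.0612, limma). Strain differences ran from -0.0128 to 0.0879 for Cbr2, -0.0445 to 0.2374 for Hpgd, -0.1523 to 0.0153 for Akr1a1 and -0.0107 to 0.3021 for Dcxr. Correlations of deviations ran from 0.4029 to 0.6846 for Cbr1 with Cbr3, -0.2229 to 0.2484 for Cbr1 with Cbr4 and -0.185 to 0.1363 for Cbr3 with Cbr4, a setting chosen after seeing the data.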
